A study of Homo sapiens with 9 samples.

Results

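The 48 genes described here act at the passage from G1 into S phase and in DNA replication. They were taken from a list of symbols that was chosen with earlier results of these data known. Each of the 48 was found among the 60664 gene identifiers of the count table. All 48 also passed the filter on low counts that left 16903 genes for testing, so no member was lost. RNA was sequenced from A549, an established line of human lung adenocarcinoma cells, carrying a control short hairpin RNA (shCtrl), a hairpin directed at HES1 (shHES1) or a hairpin directed at HES4 (shHES4), with 3 libraries in each group. Cells trim such a hairpin to a small interfering RNA that targets matching transcripts for destruction. HES1 and HES4 are repressors of transcription related to Drosophila hairy, and HES1 is a known target of Notch signalling. The labels name no drug, time point or further allele, and they do not say which hairpin sequence was used, whether the cells were pools or clones, or whether the replicates were separate cultures. The p-values therefore measure the spread between libraries, and that spread may be technical.

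Entry into S phase is controlled by E2F transcription factors, which the retinoblastoma protein holds inactive until cyclin-dependent kinases phosphorylate it. Before S phase, the origin recognition complex, CDC6 and CDT1 load the MCM2 to MCM7 ring onto DNA, a step called licensing. In S phase the ring is joined by CDC45 and the GINS complex to form the working helicase, and polymerases, the PCNA clamp, its loaders and the enzymes of nucleotide synthesis then copy the DNA. Most of these genes are known E2F targets, and their transcripts rise in late G1 and S phase in cycling cells. In bulk RNA, fewer cells in S phase and less of each transcript per cell cannot be told apart.

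The libraries held 22.8 to 27.6 M counts. Levels are given in CPM, counts scaled to a common library size with edgeR's TMM factors. A549 and epithelial markers were all detected, at 8 of 8, with mean levels in shCtrl of 3684 CPM for KRT8 and 6139 CPM for ALDH1A1. In shHES1 4 of the 8 were lower than in shCtrl, KRT8, KRT18, AKR1B10 and AKR1C1, and KRT19 was higher. In shHES4 AKR1B10 was lower and KRT8 and KRT19 were higher. Their summed level spanned 13098 to 13389 CPM in shCtrl, 12369 to 12584 in shHES1 and 13680 to 14091 in shHES4. The leukocyte markers PTPRC and CD3E lay at 0 or 1 count per library. The summed leukocyte markers, nearly all of it CD68, spanned 85.2 to 101 CPM in shCtrl, 81.6 to 84.8 in shHES1 and 111 to 114 in shHES4. Summed fibroblast markers spanned 12.8 to 17.6, 19.2 to 19.8 and 11.1 to 12.7 CPM in the same order, mostly from COL1A1. The mitochondrial share of counts spanned 6.23 to 7.16% in shCtrl, 6.53 to 6.69% in shHES1 and 5.89 to 6.16% in shHES4. The part of these differences in the results was not tested.

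HES1, the target of the first hairpin, did not fall in the libraries that carry its name. It stood at 6.99, 6.55 and 7.17 CPM in shCtrl and at 9.11, 6.40 and 8.32 CPM in shHES1, with a log2 fold change of 0.20 ± 0.12 (SE) and an adjusted p of 0.345. HES4 stood at 21.3, 25.4 and 27.7 CPM in shCtrl, 18.3, 15.2 and 15.7 in shHES1 and 20.4, 17.1 and 16.6 in shHES4. HES4 fell in both groups, by 0.59 ± 0.10 on the log2 scale in shHES1 (adjusted p = 7.60e-04) and by 0.46 ± 0.10 in shHES4 (adjusted p = 0.00992). The group names below are those of the labels, and a direction in shHES1 is that of the libraries labelled so. Log2 fold changes carry their standard error, and adjusted p-values are from edgeR's quasi-likelihood F test with Benjamini-Hochberg adjustment over all 16903 genes, called at 0.05.

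The promoters of members were read from RefSeq on GRCh38.p14 as the 250 bases before and the 50 bases after the annotated start. An entry was matched for 41 of the 48 members. E2F factors bind sites that share a short core, here searched on both strands as TTCCCGC, next as TTCGCGC, next as TTGCCGC and last as TTGGCGC. The 5 promoters printed belong to members with low adjusted p-values in shHES1 against shCtrl, and capitals mark the E2F core. They are MCM2 (chr3:127598161-127598460, plus strand), CDC6 (chr17:40287629-40287928, plus strand), MCM3 (chr6:52284693-52284992, minus strand), PCNA (chr20:5126573-5126872, minus strand) and RRM2 (chr2:10122489-10122788, plus strand), each written 5′ to 3′ on the strand of the gene.
MCM2: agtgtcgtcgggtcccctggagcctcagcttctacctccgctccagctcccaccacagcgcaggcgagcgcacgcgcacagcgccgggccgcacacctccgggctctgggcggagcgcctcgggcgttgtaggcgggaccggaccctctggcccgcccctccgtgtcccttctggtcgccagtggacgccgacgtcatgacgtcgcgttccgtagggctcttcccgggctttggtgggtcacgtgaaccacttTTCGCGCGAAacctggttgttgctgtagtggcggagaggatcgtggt
CDC6: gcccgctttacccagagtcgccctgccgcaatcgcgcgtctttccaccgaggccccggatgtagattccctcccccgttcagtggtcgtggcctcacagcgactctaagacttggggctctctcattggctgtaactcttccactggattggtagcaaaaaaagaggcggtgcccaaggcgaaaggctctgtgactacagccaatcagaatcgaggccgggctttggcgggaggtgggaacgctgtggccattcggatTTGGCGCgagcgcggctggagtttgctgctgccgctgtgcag
MCM3: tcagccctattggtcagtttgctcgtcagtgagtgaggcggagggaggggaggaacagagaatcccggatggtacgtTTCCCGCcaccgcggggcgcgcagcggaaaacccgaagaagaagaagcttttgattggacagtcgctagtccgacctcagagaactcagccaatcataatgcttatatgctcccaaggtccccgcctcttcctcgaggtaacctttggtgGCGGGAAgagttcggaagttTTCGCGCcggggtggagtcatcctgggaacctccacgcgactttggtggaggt
PCNA: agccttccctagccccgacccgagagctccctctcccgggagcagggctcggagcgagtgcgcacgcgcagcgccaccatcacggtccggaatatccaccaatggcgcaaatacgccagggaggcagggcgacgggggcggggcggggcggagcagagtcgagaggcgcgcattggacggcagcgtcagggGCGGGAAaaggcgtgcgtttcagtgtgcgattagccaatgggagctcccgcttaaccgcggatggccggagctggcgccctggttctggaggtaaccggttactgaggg
RRM2: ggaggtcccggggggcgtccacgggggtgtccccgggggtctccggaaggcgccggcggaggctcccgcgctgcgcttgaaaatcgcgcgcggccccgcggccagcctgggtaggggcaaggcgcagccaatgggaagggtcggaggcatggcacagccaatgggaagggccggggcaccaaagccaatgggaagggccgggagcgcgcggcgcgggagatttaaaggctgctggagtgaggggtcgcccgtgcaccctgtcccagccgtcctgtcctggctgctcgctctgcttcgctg
The MCM2 promoter held 2 core matches on opposite strands that overlap each other, CDC6 and PCNA held 1 each, and MCM3 held 3. RRM2, the small subunit of ribonucleotide reductase, held no core match in this window, and it carried 3 CCAAT boxes.

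The E2F core was present in 32 of 41 member promoters (78%), against 20.1% of the 11912 promoters of tested genes and 13.1% of all 27305 promoters of the same length. An 8-letter form with a further T in front, TTTCCCGC, TTTCGCGC, TTTGCCGC or TTTGGCGC, which holds the core within it, was present in 23 of 41 member promoters (56.1%) and in 5.2% of those of tested genes. Among the 21 members with a promoter entry that were lower in shHES1 against shCtrl, 19 held the core (90.5%), and 13 of the 20 other members did (65%). CCAAT boxes, the sites of the NF-Y factor, were present in 56.1% of member promoters and in 36.1% of those of tested genes. Split in the same way, 15 of the 21 lower members held a CCAAT box (71.4%) and 8 of the 20 others did (40%). These splits and those below follow the calls of these same data, and no difference between the shares was tested. The letters TTTGAA, known from promoters of G2/M genes, were present in 1 member promoter (2.44%) and in 9.95% of those of tested genes. HES proteins bind N boxes (CACNAG) and class C sites (CACGCG). N boxes were present in 36.6% of member promoters and 34.8% of those of tested genes, and class C sites in 22% and 17.7%. Between the lower members and the others, N boxes stood at 33.3% and 40%, and class C sites at 23.8% and 20%. E boxes (CACGTG), a further site of helix-loop-helix factors, were present in 9.76% of member promoters and 9.88% of those of tested genes. Among the lower members and the others they were at 9.52% and 10%. A match is a description of letters, and binding was not measured here.

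**Figure D1:**
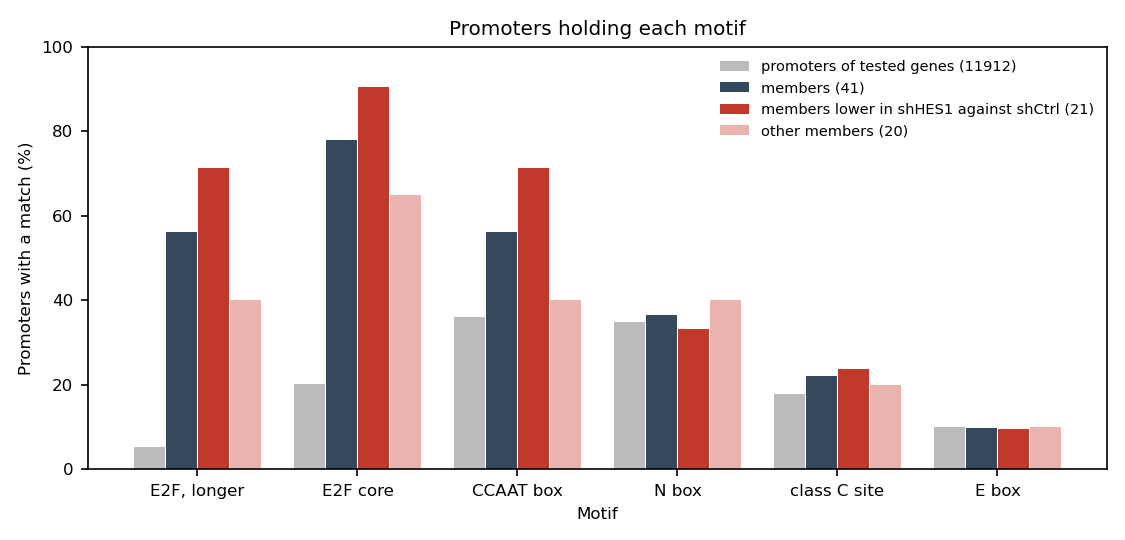
Percent of promoters (300 bases each) holding each motif, for promoters of tested genes, all members with an entry, members lower in shHES1 against shCtrl and the other members. The E2F core was present in 78% of members and 20.1% of tested genes, whereas N boxes were at 36.6% and 34.8%.

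In the libraries labelled shHES1, 23 of the 48 genes fell against shCtrl and 0 rose. Over all 16903 genes 9.73% were called in this comparison, 4.48% lower and 5.25% higher, and among the genes with a mean of at least 10 CPM, where 47 of the members lie, 6.71% were lower and 6.37% higher. The called genes differed by between -20.1% and -8.33%, with a median of -12.9%. The fitted log2 fold change was below 0 for 45 members and 50.8% of all genes, with a median of -0.15 over the members and -0.00 over all genes. DESeq2's Wald test called 22 members lower and 0 higher, beside 3.96% of all genes lower. At an unadjusted p of 0.05, 36 members were lower and 0 higher. The share of all genes at an unadjusted p was not counted, here or below. All 3 shHES1 libraries lay below all 3 shCtrl libraries for 35 members, a pattern seen in 13.6% of all genes.

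Each shHES1 library showed the shift. The median of the members' log2 ratios to the shCtrl mean was -0.15, -0.18 and -0.14 in the 3 shHES1 libraries, -0.03, -0.04 and -0.05 in shHES4, and between -0.00 and 0.01 in shCtrl. In the shHES1 libraries 45, 44 and 46 of the 48 members lay below the shCtrl mean, and in shHES4 33, 32 and 34 did. The summed level of all 48 members was 4097, 4118 and 4112 CPM in shCtrl, 3715, 3649 and 3696 CPM in shHES1, and 4062, 4017 and 3970 CPM in shHES4.

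**Figure D2:**
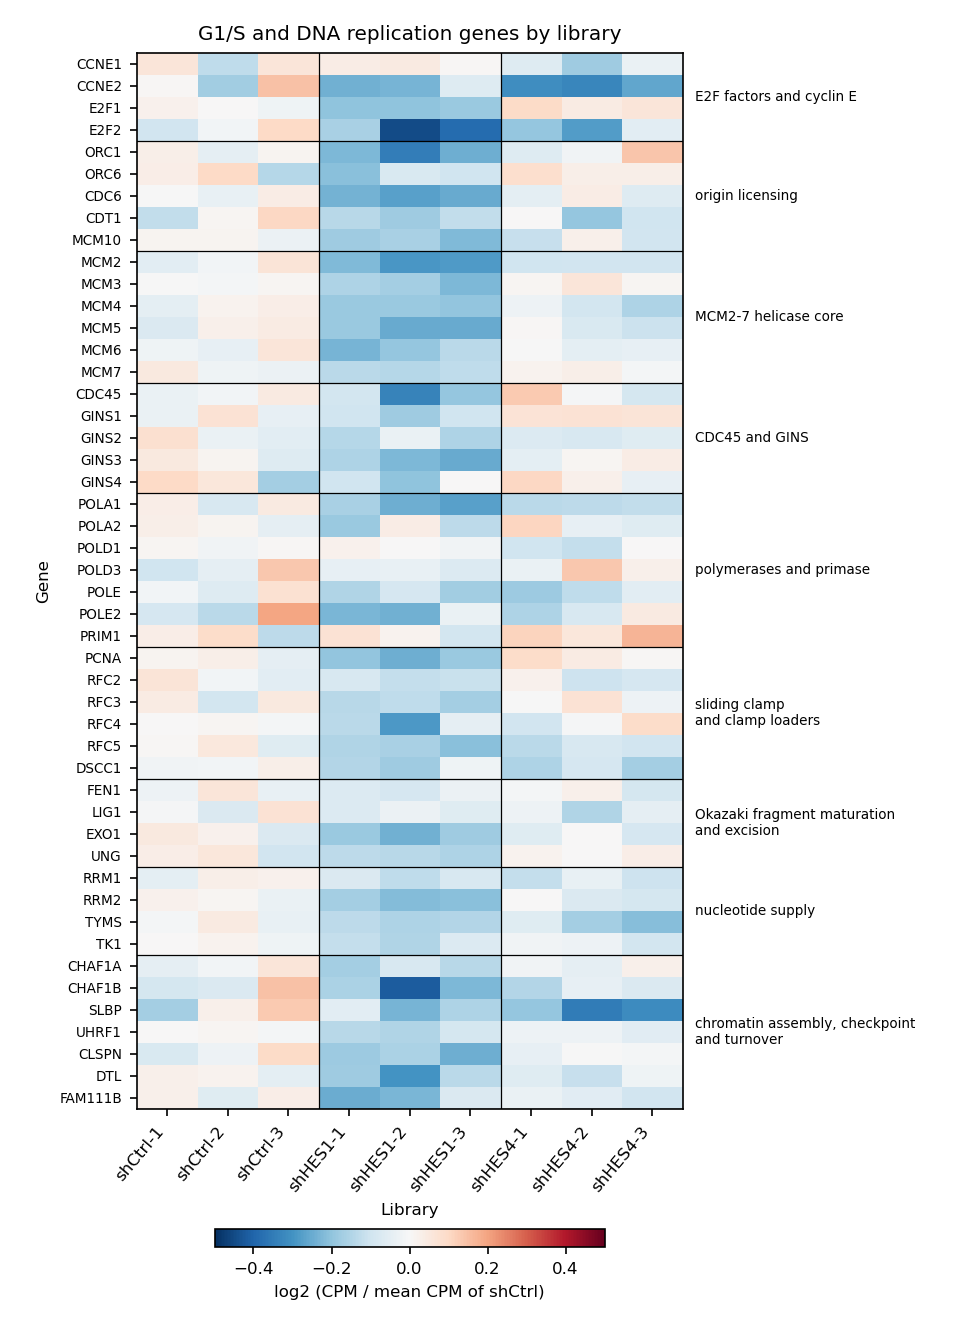
Log2 ratio of each member's CPM to its shCtrl mean, in each of the 9 libraries (columns), with members as rows in order of their roles. The 3 shHES1 columns hold mostly values below 0 and the shHES4 columns mostly values near 0.

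Leaving out shHES1 replicate 2 lowered the count in shHES1 against shCtrl to 14 members, beside 2.77% of all genes lower. The other single libraries left 16 to 24, beside 2.9% to 5.09% of all genes. Of the 23 genes, 11 kept their call under all 17 alternative settings, namely E2F1, CDC6, MCM2, MCM3, MCM4, MCM5, MCM6, MCM7, POLA1, PCNA and RRM2. Of the genes called in this comparison, 46% were lower with TMM factors, 31.9% with scaling by total counts and 59.8% with a correction for GC content and length. The members called lower numbered 18 with total counts and 30 with that correction, beside 3.25% and 7.44% of all genes. No member was higher under any of these settings in this comparison.

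Among the E2F factors and E-type cyclins, E2F1 and E2F2 fell in shHES1, and 2 of the 4 genes were not called. E2F1, an activator of S phase genes, stood at 40.0, 39.5 and 38.8 CPM in shCtrl, 34.3, 34.3 and 34.7 in shHES1, and 42.1, 40.6 and 41.2 in shHES4. The shHES1 values lay below every other library and the shHES4 values above all shCtrl libraries. E2F1 fell by 0.20 ± 0.04 in shHES1 (adjusted p = 0.00710), and in shHES4 its log2 fold change was 0.07 ± 0.04 (adjusted p = 0.455). E2F2, a second activator, stood at 19.1, 20.2 and 21.9 CPM in shCtrl, 18.3, 15.0 and 15.7 in shHES1, and 17.9, 16.8 and 19.7 in shHES4. The shHES4 values of E2F2 overlapped those of both other groups. E2F2 fell by 0.32 ± 0.08 in shHES1 (adjusted p = 0.0207), a call that was lost on leaving out replicate 2 or 3 of either shCtrl or shHES1.

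CCNE2, a cyclin E that activates CDK2, stood at 8.28, 7.31 and 9.12 CPM in shCtrl, 6.98, 7.01 and 7.87 in shHES1, and 6.64, 6.58 and 6.89 in shHES4. Its shHES4 values lay below those of both other groups, yet no comparison was called, with adjusted p of 0.344 in shHES1 and 0.124 in shHES4. CCNE2 shares 1629 of its 4397 exonic bases with INTS8 on the opposite strand. CCNE1, the other cyclin E, stood at 39.0, 34.2 and 39.0 CPM in shCtrl, 38.4, 38.6 and 37.6 in shHES1, and 35.8, 33.1 and 36.6 in shHES4. The CCNE1 ranges overlapped between shCtrl and each shHES group, and its log2 fold change in shHES1 was 0.03 ± 0.06 (adjusted p = 0.825).

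Origin licensing was grouped here with MCM10, which acts after it, and of these 5 members CDC6, ORC1 and MCM10 fell in shHES1. CDC6, a loader of the MCM ring, stood at 118, 116 and 122 CPM in shCtrl, 101, 98.4 and 99.7 in shHES1, and 115, 122 and 113 in shHES4. The shHES1 values lay apart from all others, while shCtrl and shHES4 overlapped. CDC6 fell by 0.25 ± 0.04 in shHES1 (adjusted p = 1.98e-04), a change of -16.0%, and in shHES4 its log2 fold change was -0.02 ± 0.04 (adjusted p = 0.790). ORC1, the largest subunit of the origin recognition complex, stood at 30.6, 29.1 and 30.3 CPM in shCtrl, 25.7, 23.7 and 25.4 in shHES1, and 28.7, 29.7 and 33.1 in shHES4. As for CDC6, only the shHES1 libraries stood apart. ORC1 fell by 0.27 ± 0.06 in shHES1 (adjusted p = 0.00775), a call narrowly lost without shHES1 replicate 2 (adjusted p = 0.05002).

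MCM10, which acts where the loaded ring is turned into a working helicase, fell by 0.19 ± 0.04 in shHES1 (adjusted p = 0.00988), a call lost without shHES1 replicate 3. CDT1, the partner of CDC6 in loading, stood at 35.0, 38.3 and 40.9 CPM in shCtrl, 34.6, 33.7 and 35.0 in shHES1, and 38.1, 33.3 and 35.5 in shHES4. The shHES1 and shCtrl ranges of CDT1 met at their edges, and neither group was called against shCtrl, with adjusted p of 0.161 in shHES1 and 0.438 in shHES4. ORC6, another subunit of the origin recognition complex, had a log2 fold change of -0.13 ± 0.06 in shHES1 against shCtrl (adjusted p = 0.187).

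All 6 genes of the MCM2 to MCM7 ring, the core of the replicative helicase, fell in shHES1, and none of the 6 was called in shHES4. The summed level of the 6 genes was 1144, 1149 and 1167 CPM in shCtrl, 1023, 1011 and 1012 CPM in shHES1, and 1144, 1132 and 1104 CPM in shHES4. MCM2 stood at 147, 151 and 159 CPM in shCtrl, 131, 125 and 126 in shHES1, and 142, 143 and 143 in shHES4. The 3 groups of MCM2 values did not overlap, with shHES4 between the others. MCM2 fell by 0.26 ± 0.04 in shHES1 (adjusted p = 8.87e-05), and its log2 fold change in shHES4 was -0.10 ± 0.04 (adjusted p = 0.137). MCM5 stood at 125, 133 and 135 CPM in shCtrl, 115, 110 and 110 in shHES1, and 131, 124 and 121 in shHES4. Its shHES1 values lay below all others, and shHES4 overlapped shCtrl. MCM5 fell by 0.23 ± 0.04 in shHES1 (adjusted p = 0.00111).

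MCM3 stood at 146, 145 and 147 CPM in shCtrl, 132, 130 and 125 in shHES1, and 147, 153 and 147 in shHES4. MCM4 stood at 254, 266 and 269 CPM in shCtrl, 231, 231 and 229 in shHES1, and 258, 247 and 236 in shHES4. For both genes the shHES1 libraries were the lowest of the 9. MCM3 fell by 0.18 ± 0.03 (adjusted p = 0.00129) and MCM4 by 0.19 ± 0.04 (adjusted p = 0.00176) in shHES1. The remaining subunits, MCM6 and MCM7, fell by 0.19 ± 0.04 (adjusted p = 0.00483) and 0.13 ± 0.03 (adjusted p = 0.00670). Thus the 6 falls spanned 0.13 to 0.26 on the log2 scale, and all 6 calls held in every alternative setting.

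**Figure D3:**
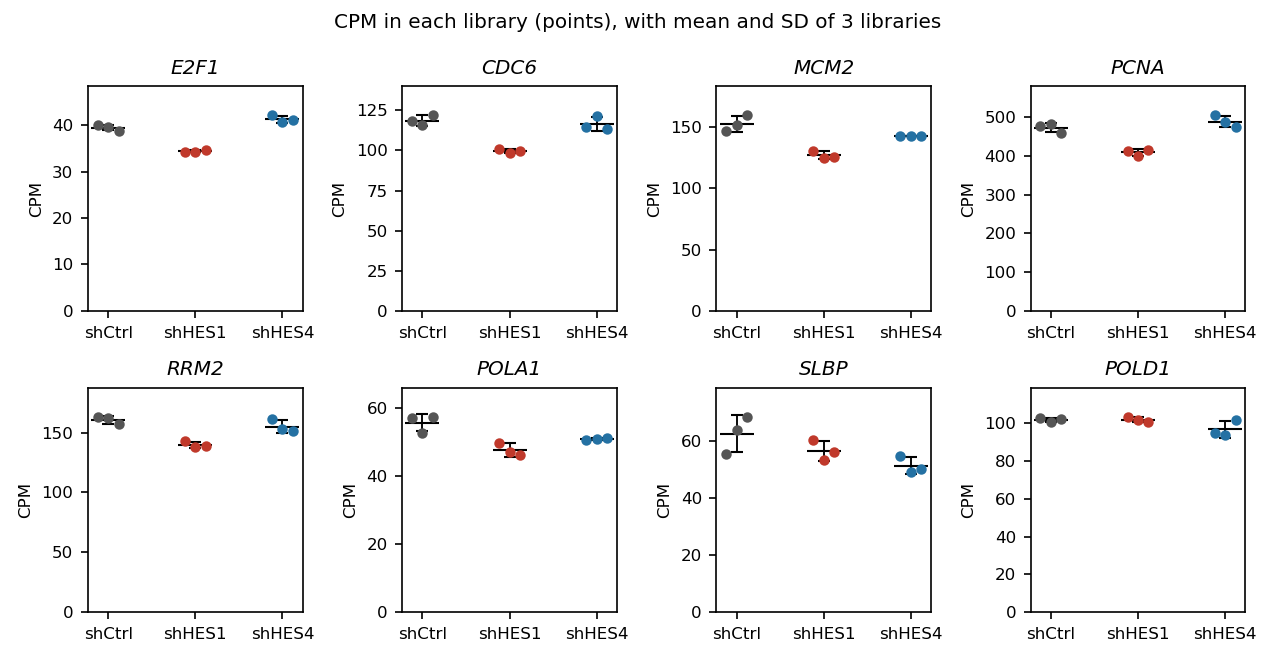
CPM of 8 members (E2F1, CDC6, MCM2, PCNA, RRM2, POLA1, SLBP and POLD1) in each library, by group, with points for libraries and bars for the mean and SD (n = 3). The shHES1 points lie below all shCtrl points for E2F1, CDC6, MCM2, PCNA, RRM2 and POLA1, and overlap them for SLBP and POLD1.

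CDC45 and the 4 GINS genes complete the helicase, and of these 5 only GINS3 was called lower in shHES1, in edgeR's test; DESeq2's Wald test called 0. GINS3 stood at 24.1, 23.6 and 22.3 CPM in shCtrl, 20.9, 20.0 and 19.6 in shHES1, and 22.6, 23.5 and 23.9 in shHES4. The shHES4 values fell within the shCtrl range and the shHES1 values below it. GINS3 fell by 0.21 ± 0.06 in shHES1 (adjusted p = 0.0316), and this call was lost without any of shCtrl replicates 1 and 2 and shHES1 replicates 2 and 3. CDC45 stood at 35.9, 36.4 and 38.0 CPM in shCtrl, 34.5, 29.2 and 32.2 in shHES1, and 40.3, 36.7 and 34.6 in shHES4. All shHES1 values of CDC45 lay below all others, and its log2 fold change of -0.20 ± 0.07 in shHES1 had an adjusted p of 0.0609. GINS1 stood at 57.8, 62.2 and 57.5 CPM in shCtrl, 55.2, 52.3 and 55.2 in shHES1, and 62.1, 62.2 and 61.9 in shHES4. The shHES1 values of GINS1 again lay lowest, with a log2 fold change of -0.12 ± 0.04 (adjusted p = 0.0836). GINS2 and GINS4 had log2 fold changes of -0.11 ± 0.05 and -0.10 ± 0.07 in shHES1 and were not called.

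The 7 polymerase and primase genes held 1 call in shHES1, POLA1. POLA1, the catalytic subunit of the polymerase that starts each strand, stood at 56.9, 52.7 and 57.4 CPM in shCtrl, 49.8, 47.0 and 46.1 in shHES1, and 50.7, 50.9 and 51.1 in shHES4. The 3 groups did not overlap, and shHES4 lay between the others. POLA1 fell by 0.23 ± 0.05 in shHES1 (adjusted p = 0.00359), and its log2 fold change in shHES4 was -0.13 ± 0.05 (adjusted p = 0.115). POLE, the catalytic subunit of the leading strand polymerase, stood at 105, 102 and 112 CPM in shCtrl, 95.9, 100 and 94.2 in shHES1, and 93.8, 97.3 and 103 in shHES4. Its log2 fold changes were -0.14 ± 0.04 in shHES1 (adjusted p = 0.0609) and -0.12 ± 0.04 in shHES4 (adjusted p = 0.135). Although the shHES1 values of POLE lay below all shCtrl values, the call was not reached.

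POLD1, the catalytic subunit of the lagging strand polymerase, stood at 102, 100 and 102 CPM in shCtrl, 103, 102 and 100 in shHES1, and 94.7, 93.4 and 102 in shHES4. PRIM1, the primase catalytic subunit, stood at 62.8, 65.4 and 56.0 CPM in shCtrl, 64.5, 62.1 and 57.6 in shHES1, and 66.2, 63.8 and 69.0 in shHES4. The shHES1 and shCtrl libraries overlapped for both genes, with log2 fold changes of 0.00 ± 0.04 for POLD1 and 0.00 ± 0.06 for PRIM1. POLA2, POLD3 and POLE2, further polymerase subunits, had log2 fold changes of -0.09 ± 0.06, -0.05 ± 0.06 and -0.16 ± 0.10 and were not called.

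PCNA, the sliding clamp that holds polymerases on DNA, stood at 477, 482 and 459 CPM in shCtrl, 412, 399 and 416 in shHES1, and 504, 486 and 475 in shHES4. Its shHES1 values were the lowest of the 9 libraries, and shCtrl and shHES4 overlapped. PCNA fell by 0.21 ± 0.03 in shHES1 (adjusted p = 2.73e-04), a change of -13.4%, and in shHES4 its log2 fold change was 0.05 ± 0.03 (adjusted p = 0.458). RFC5, a subunit of the loader that opens the clamp, stood at 53.2, 55.1 and 50.8 CPM in shCtrl, 47.8, 47.4 and 45.9 in shHES1, and 48.3, 50.1 and 49.6 in shHES4. The 3 groups of RFC5 values did not overlap, and shHES4 lay between the others. RFC5 fell by 0.17 ± 0.04 in shHES1 (adjusted p = 0.0163), a call lost without shCtrl replicate 2 or shHES1 replicate 3. RFC2, RFC3, RFC4 and the alternative loader subunit DSCC1 had log2 fold changes between -0.15 and -0.10 in shHES1 and were not called.

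EXO1, an exonuclease of mismatch repair, and UNG, which removes uracil from DNA, fell in shHES1, and FEN1 and LIG1, which finish Okazaki fragments, were not called. EXO1 stood at 44.2, 43.5 and 40.7 CPM in shCtrl, 37.7, 36.3 and 37.8 in shHES1, and 41.0, 42.9 and 40.4 in shHES4. UNG stood at 87.8, 89.4 and 80.4 CPM in shCtrl, 78.3, 78.0 and 77.2 in shHES1, and 86.8, 85.9 and 87.9 in shHES4. For both genes the shHES1 libraries lay below all others, and shCtrl and shHES4 overlapped. EXO1 fell by 0.20 ± 0.05 (adjusted p = 0.0116), a call lost on dropping shCtrl replicate 1 or 2 or shHES1 replicate 2. UNG fell by 0.14 ± 0.04 (adjusted p = 0.0369). That call was lost without shCtrl replicate 1 or 2 or any of the 3 shHES1 replicates. It was also lost with total counts, a replicate block or the fit of 6 libraries. LIG1 stood at 76.4, 72.9 and 80.6 CPM in shCtrl, 73.1, 75.0 and 73.5 in shHES1, and 75.3, 69.1 and 74.4 in shHES4, with overlap of all groups. The log2 fold changes in shHES1 were -0.05 ± 0.04 for LIG1 and -0.06 ± 0.04 for FEN1.

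Of the 4 genes of nucleotide supply, RRM2 and TYMS fell in shHES1. RRM2 stood at 163, 162 and 157 CPM in shCtrl, 143, 138 and 139 in shHES1, and 161, 153 and 151 in shHES4. Only the shHES1 libraries of RRM2 stood apart. RRM2 fell by 0.20 ± 0.03 in shHES1 (adjusted p = 8.45e-04). TYMS, thymidylate synthase, stood at 105, 109 and 103 CPM in shCtrl, 96.8, 95.2 and 95.9 in shHES1, and 102, 94.1 and 91.4 in shHES4. All libraries of both shHES groups lay below shCtrl, and the 2 groups overlapped each other. TYMS fell by 0.14 ± 0.04 in shHES1 (adjusted p = 0.0325) and by 0.15 ± 0.04 in shHES4 (adjusted p = 0.0437). The TYMS call in shHES1 was lost with total counts and without shCtrl replicate 1 or 2 or any of the 3 shHES1 replicates. Its call in shHES4 was lost under 10 of the 17 alternatives. These included total counts, the fit of 6 libraries, and leaving out shCtrl replicate 1 or 2, any shHES1 replicate, or shHES4 replicate 2 or 3. RRM1, the large subunit of ribonucleotide reductase, and TK1, thymidine kinase, had log2 fold changes of -0.09 ± 0.03 (adjusted p = 0.112) and -0.11 ± 0.03 (adjusted p = 0.0529) in shHES1. TYMS shares 967 exonic bases with ENOSF1 on the opposite strand and RRM2 shares 1077 with ENSG00000284681 on the same strand. Exons of 20 of the 48 members overlap another gene. Whether counting used strand is not given in the sources used here. Reads of opposite-strand neighbours, as for CCNE2, TYMS, MCM2 and MCM7, therefore cannot be told apart. For same-strand neighbours, as for RRM2, strand would not separate the reads.

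The last 7 members serve chromatin assembly, the replication checkpoint and protein turnover in S phase, and 4 of them fell in shHES1. DTL, a substrate receptor for PCNA-dependent protein destruction, stood at 51.8, 51.6 and 49.2 CPM in shCtrl, 45.0, 41.4 and 46.3 in shHES1, and 48.8, 47.0 and 50.1 in shHES4. CLSPN, an adaptor of the replication checkpoint, stood at 42.5, 44.1 and 47.9 CPM in shCtrl, 39.5, 40.2 and 37.9 in shHES1, and 43.6, 44.8 and 44.6 in shHES4. For DTL and CLSPN the shHES1 values lay below all others. DTL fell by 0.20 ± 0.05 (adjusted p = 0.0131), a call lost without shCtrl replicate 1 or 2 or shHES1 replicate 2. CLSPN fell by 0.19 ± 0.05 (adjusted p = 0.0196), a call lost without shCtrl replicate 3 or shHES1 replicate 1 or 3. CHAF1B, a subunit of the chromatin assembly factor that places histones on new DNA, fell by 0.26 ± 0.07 (adjusted p = 0.0327), and UHRF1, which passes DNA methylation to the new strand, fell by 0.13 ± 0.03 (adjusted p = 0.0197). CHAF1B was no longer called without replicate 3 of shCtrl or replicate 2 or 3 of shHES1. UHRF1 was no longer called on leaving out replicate 1 or 2 of either shCtrl or shHES1. Both calls were also lost with total counts, and that of CHAF1B in the fit of 6 libraries. CHAF1A and FAM111B had log2 fold changes of -0.13 ± 0.04 (adjusted p = 0.0848) and -0.18 ± 0.06 (adjusted p = 0.0561) and were not called.

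**Figure D4:**
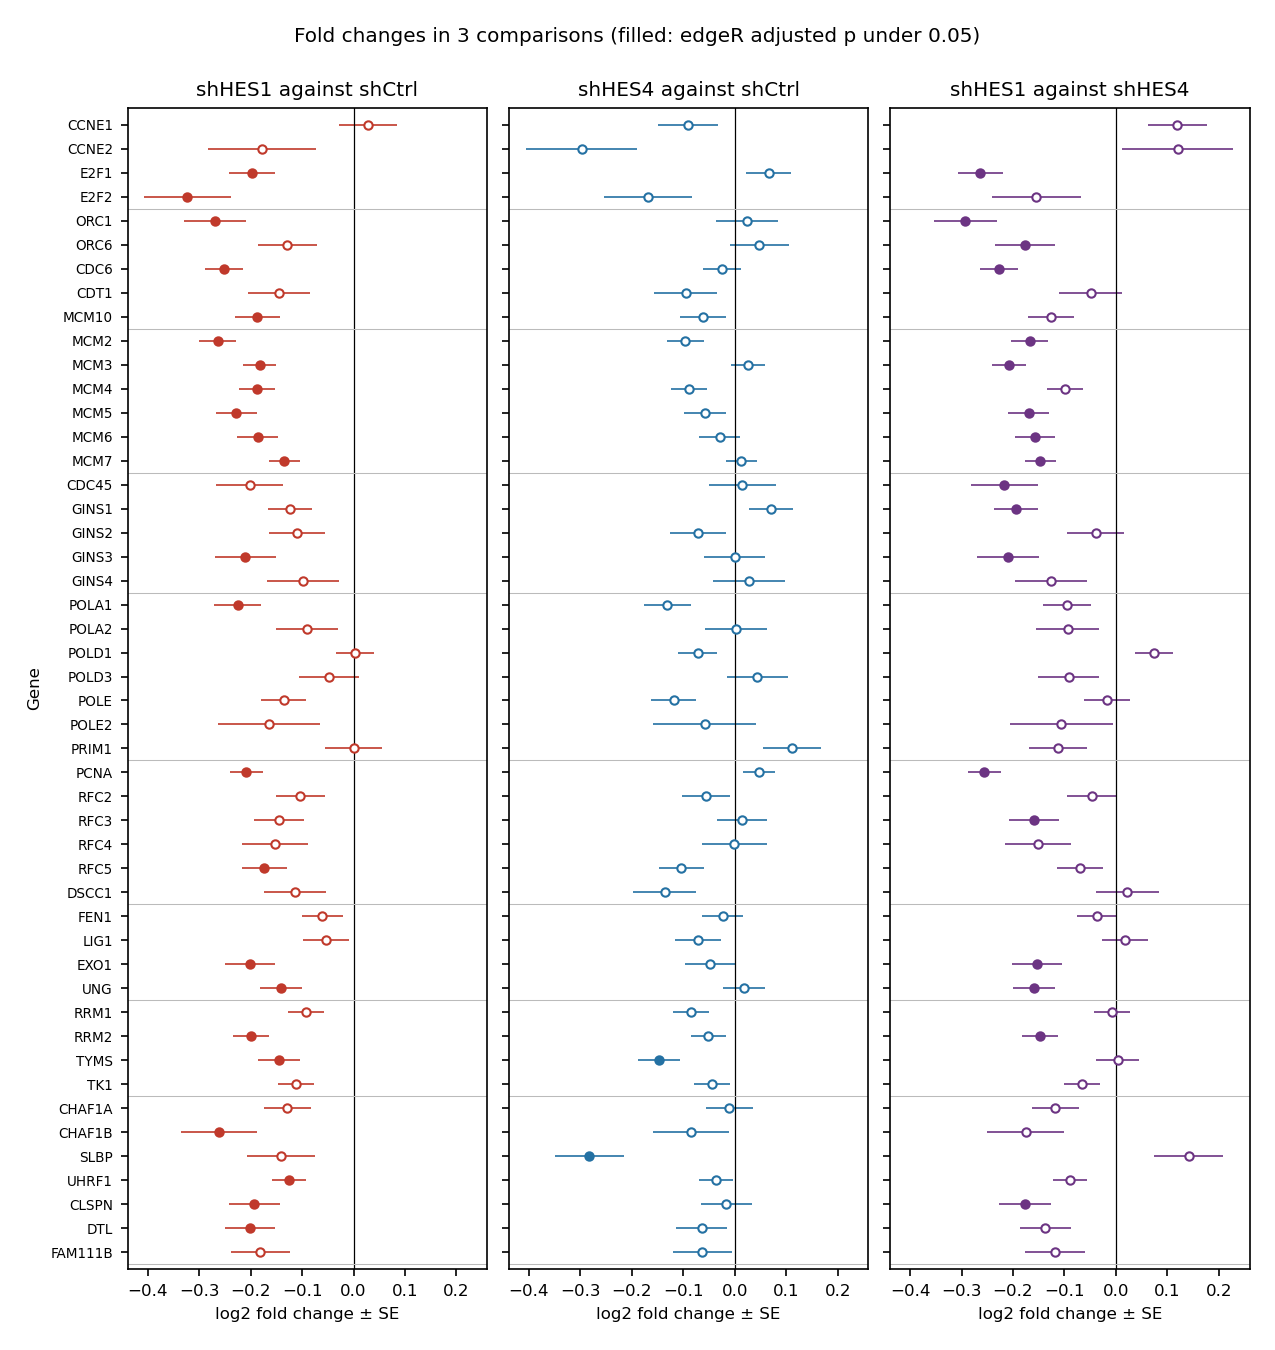
Log2 fold change of each member, with a line for ± SE, for each shHES group against shCtrl (first and second panel) and for the direct comparison (the last panel), in order of role, with filled points for adjusted p under 0.05. In shHES1, 23 points are filled and all lie below 0; in shHES4 2 are filled and in the direct comparison 18 are.

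In shHES4 against shCtrl, 2 of the 48 members fell, TYMS and SLBP, and 0 rose. Over all genes 5.94% were called in this comparison, 2.7% lower and 3.24% higher, and 3.81% and 4.34% among those with at least 10 CPM, so the 4.17% of members called lower lies near the background. The median log2 fold change was -0.05 over the members, 34 lay below 0 (49.7% of all genes), and the values spanned -0.30 to 0.11. At an unadjusted p of 0.05, 10 members were lower and 0 higher. DESeq2's Wald test called 2 lower and 0 higher, beside 2.58% of all genes lower. The shHES4 libraries lay wholly below shCtrl for 9 members and wholly above for 1, where 11% and 11.4% of all genes do so.

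SLBP, which binds the stem loop of histone transcripts, stood at 55.6, 63.7 and 68.5 CPM in shCtrl, 60.3, 53.3 and 56.3 in shHES1, and 54.7, 49.1 and 50.3 in shHES4. Its shHES4 values lay below all shCtrl values, whereas its shHES1 values overlapped both groups. SLBP fell by 0.28 ± 0.07 in shHES4 (adjusted p = 0.0171), and in shHES1 its log2 fold change was -0.14 ± 0.07 (adjusted p = 0.210). The SLBP call was lost on leaving out replicate 2 or 3 of either of these groups. Without shCtrl replicate 2, shHES4 replicate 2 or shHES4 replicate 3, neither SLBP nor TYMS was called in shHES4. Of all genes, 1.79%, 1.81% and 1.77% were lower in these fits. Leaving out shCtrl replicate 1 or 3 or any of the 3 shHES1 replicates left 1 member called, beside 2.25% to 2.96% of all genes.

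Both comparisons with shCtrl use the same control libraries, so shHES1 was also set directly against shHES4. In shHES1 18 of the 48 members were lower than in shHES4 and 0 were higher, beside 15.1% of all genes called, 7.65% lower and 7.41% higher. Among genes with at least 10 CPM, 10.4% were lower and 9.13% higher. The members' median log2 difference was -0.12, 41 lay below 0 (50.2% of all genes), and the values spanned -0.29 to 0.14. The shHES1 libraries lay wholly below the shHES4 libraries for 27 members and wholly above for 2, against 16.7% and 16.4% of all genes. DESeq2's Wald test called 14 lower and 0 higher, beside 6.27% of all genes lower. Without shHES1 replicate 3 the count was 11, beside 5.75% of all genes lower. Without shHES4 replicate 1 or 2 it was 12, beside 5.5% and 5.56%.

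PCNA had the smallest adjusted p of the members in the direct comparison and was lower in shHES1 by 0.26 ± 0.03 on the log2 scale (adjusted p = 1.82e-05). E2F1 was lower by 0.26 ± 0.04 (adjusted p = 4.23e-04), CDC6 by 0.23 ± 0.04 (adjusted p = 3.32e-04) and ORC1 by 0.29 ± 0.06 (adjusted p = 0.00297). Of the MCM ring, 5 of 6 genes were lower, from MCM3 at -0.21 ± 0.03 (adjusted p = 2.41e-04) to MCM7 at -0.15 ± 0.03 (adjusted p = 0.00237), while MCM4 at -0.10 ± 0.04 had an adjusted p of 0.0706. RRM2 was lower by 0.15 ± 0.03 (adjusted p = 0.00673). GINS1, uncalled against shCtrl, was lower by 0.19 ± 0.04 (adjusted p = 0.00497). CDC45, ORC6 and RFC3 were likewise called in the direct comparison alone, at -0.22 ± 0.07 (adjusted p = 0.0327), -0.18 ± 0.06 (adjusted p = 0.0476) and -0.16 ± 0.05 (adjusted p = 0.0359). Each of these last 3 calls was lost on leaving out any of several single libraries, shHES1 replicates 2 and 3 among them. Those of ORC6 and RFC3 were also lost with total counts, DESeq2's Wald test or a replicate block.

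E2F1, ORC1, CDC6, MCM2, MCM3, MCM5, MCM6, MCM7, GINS3, PCNA, EXO1, UNG, RRM2 and CLSPN, 14 members in all, were lower in shHES1 against both other groups. Of these, E2F1, CDC6, MCM2, MCM3, MCM7, PCNA and RRM2 kept both calls under every alternative setting. Against shHES4, leaving out shHES4 replicate 1 ended the calls of MCM5 and MCM6, and MCM6 was also lost without shHES1 replicate 1. EXO1 lost that call under 11 of the 17 alternatives, DESeq2's Wald test and each of the 6 libraries compared among them. GINS3 lost it under 6, DESeq2's Wald test, no filter on low counts and replicates 2 and 3 of either group. CLSPN lost it without shHES1 replicate 1 or 3 or shHES4 replicate 2 or 3, and UNG without replicate 3 of either group. A further 8 members, E2F2, MCM10, MCM4, POLA1, RFC5, CHAF1B, UHRF1 and DTL, were called against shCtrl only. For these 8 the difference between shHES1 and shHES4 did not pass the test. TYMS was called against shCtrl in both groups, with the losses given above, and its log2 difference between them was 0.00 ± 0.04 (adjusted p = 0.973). In all, 20 members were called in none of the 3 comparisons.

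Per transcript length, in TPM computed from the counts and the median transcript length of each gene, the members spanned 5.30 (CCNE2) to 614 (PCNA) in shCtrl, with a median of 39.6. The ring subunits were not at equal levels, with MCM7 at 217 ± 7.28 TPM (SD, n = 3), MCM4 at 146 ± 4.15, MCM3 at 82.2 ± 0.729, MCM5 at 77.3 ± 3.06, MCM2 at 74.0 ± 3.09 and MCM6 at 44.0 ± 1.74. Neighbours in that order lay farther apart than the sum of their SDs, except MCM5 and MCM2. CDC45 and the GINS genes lay lower, between 19.8 and 32.0 TPM, and the nucleotide supply genes between 82.2 (RRM2) and 203 (TK1). PCNA stood at 614 ± 15.0 TPM in shCtrl and 546 ± 8.38 in shHES1. These levels depend on the transcript length taken for each gene.

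Other genes of the same processes were counted from lists that hold none of the 48. In shHES1 against shCtrl, 6 of 31 other replication genes fell (19.4%, beside 4.48% of all genes) and 0 rose, with a median log2 fold change of -0.06. The count was 1 without shCtrl replicate 2, 2 without shHES1 replicate 1 and 3 without either of the other shHES1 replicates. DESeq2's Wald test gave 3. Of all genes, 2.77% to 3.96% were lower in these fits. DONSON, a helicase assembly factor, stood at 14.5, 17.5 and 14.5 CPM in shCtrl, 12.5, 12.2 and 13.2 in shHES1, and 17.0, 17.0 and 16.7 in shHES4. It fell by 0.29 ± 0.08 in shHES1 against shCtrl (adjusted p = 0.0314) and was lower by 0.42 ± 0.08 than in shHES4 (adjusted p = 0.00185). TICRR, which helps fire origins, fell in both groups, by 0.20 ± 0.04 in shHES1 (adjusted p = 0.00821) and 0.16 ± 0.04 in shHES4 (adjusted p = 0.0431). ATAD5, which unloads PCNA, also fell in both, by 0.22 ± 0.06 (adjusted p = 0.0207) and 0.30 ± 0.06 (adjusted p = 0.00490). In shHES4 these were the 2 genes of the list called (6.45%, beside 2.7% of all genes lower). That count was 1 with total counts, DESeq2's Wald test, a replicate block, the GC correction or the fit of 6 libraries. Without a filter on low counts it was 3. The count was also 1 on leaving out any shCtrl or shHES1 replicate or shHES4 replicate 3. Of all genes, 1.77% to 3.87% were lower in shHES4 in these alternative fits.

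Of 15 other S phase markers, 5 fell in shHES1 against shCtrl (33.3%, beside 4.48% of all genes) and 0 rose, with a median of -0.11. This count was 3 without shHES1 replicate 1 or 2 and 2 without shHES1 replicate 3, beside 3.38%, 2.77% and 2.9% of all genes. ATAD2, a chromatin ATPase, stood at 113, 111 and 116 CPM in shCtrl and 94.3, 96.4 and 94.2 in shHES1, with no overlap. It fell by 0.25 ± 0.04 in shHES1 (adjusted p = 7.71e-04). In shHES4 0 of these 15 passed edgeR's test or DESeq2's, and 1 was lower and 1 higher at an unadjusted p of 0.05.

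In the E2F, RB and CDK2 circuit upstream of these genes, 1 of 17 genes (5.88%) was lower in each comparison with shCtrl and 0 were higher. The share lies near that of all genes, 4.48% in shHES1 and 2.7% in shHES4. TFDP1, the DNA-binding partner of E2F factors, stood at 93.2, 88.0 and 93.4 CPM in shCtrl, 84.0, 85.0 and 84.9 in shHES1, and 78.9, 78.7 and 77.6 in shHES4. The 3 groups did not overlap. TFDP1 fell by 0.22 ± 0.04 in shHES4 (adjusted p = 8.55e-04), and in shHES1 its log2 fold change was -0.11 ± 0.04 (adjusted p = 0.0566). E2F8, a repressor E2F, was the gene lower in shHES1, by 0.27 ± 0.08 (adjusted p = 0.0430). In shHES1 the count for this list was 0 with total counts, DESeq2's Wald test, a replicate block or the fit of 6 libraries. It was also 0 without shCtrl replicate 3, any shHES1 replicate, or shHES4 replicate 2 or 3. It was 2 with the GC correction or without shCtrl replicate 1, and in shHES4 it was 1 under every alternative. Over all alternatives, 2.77% to 7.44% of all genes were lower in shHES1 and 1.77% to 4.07% in shHES4. DUT, the dUTPase, fell in shHES1 by 0.17 ± 0.04 (adjusted p = 0.0217). It was the 1 gene called of 10 other genes of nucleotide supply (10%, beside 4.48% of all genes lower). That count was 0 with total counts and without replicate 1 or 2 of either shCtrl or shHES1. It was 2 with no low-count filter, and 3 with the GC correction or without shCtrl replicate 3.

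Markers of G2 and mitosis showed calls in shHES4 and in the direct comparison. In shHES1 against shCtrl, 0 of 25 G2/M markers were called by edgeR's test or DESeq2's, 0 had an unadjusted p under 0.05, and the median log2 fold change was -0.01. With the GC correction, 1 of them was lower in this comparison, beside 7.44% of all genes, and the median was -0.04. In shHES4 against shCtrl, 5 of the 25 fell (20%, beside 2.7% of all genes) and 0 rose, with a median of -0.11. When single libraries were left out, 3 to 7 fell, beside 1.77% to 2.96% of all genes. The count was 11 with the GC correction, 10 without a filter on low counts and 3 in the fit of 6 libraries. Of all genes, 3.87%, 2.41% and 1.94% were lower under these settings. It was also 3 without shCtrl replicate 2, shHES4 replicate 1 or shHES4 replicate 3. TOP2A, topoisomerase II alpha, stood at 469, 469 and 480 CPM in shCtrl, 467, 492 and 491 in shHES1, and 423, 439 and 423 in shHES4. CENPF, a kinetochore protein, stood at 196, 202 and 206 CPM in shCtrl, 193, 198 and 197 in shHES1, and 170, 180 and 167 in shHES4. The shHES4 libraries were the lowest for both genes. TOP2A fell by 0.14 ± 0.03 in shHES4 (adjusted p = 0.00737) and CENPF by 0.22 ± 0.04 (adjusted p = 5.46e-04).

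Set directly against shHES4, 6 of the 25 G2/M markers were higher in shHES1 (24%) and 0 lower, beside 7.41% of all genes higher. Of the 48 G1/S and replication genes, 18 were lower (37.5%) and 0 higher, beside 7.65% of all genes lower. The G2/M count was 3 without shHES4 replicate 1 or 3, 9 without shHES4 replicate 2 and 11 without shCtrl replicate 3. Of all genes, 995 of 17226, 991 of 17176, 988 of 17229 and 1491 of 17236 were higher in these fits. It was 11 with total counts, 10 without a filter on low counts or with a minimum mean of 5 CPM, and 9 in the fit of 6 libraries. Under these settings 1548 of 16903, 1481 of 32636, 1222 of 11585 and 1445 of 16510 genes were higher. TOP2A was higher in shHES1 than in shHES4 by 0.17 ± 0.03 (adjusted p = 5.46e-04) and CENPF by 0.18 ± 0.03 (adjusted p = 0.00154). By library, the median log2 ratio of the G2/M markers to the shCtrl mean was -0.02, -0.03 and -0.01 in shHES1 and -0.11, -0.07 and -0.13 in shHES4. The same medians for the 48 genes, given above, were lower in shHES1 than in shHES4 in every library.

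**Figure D5:**
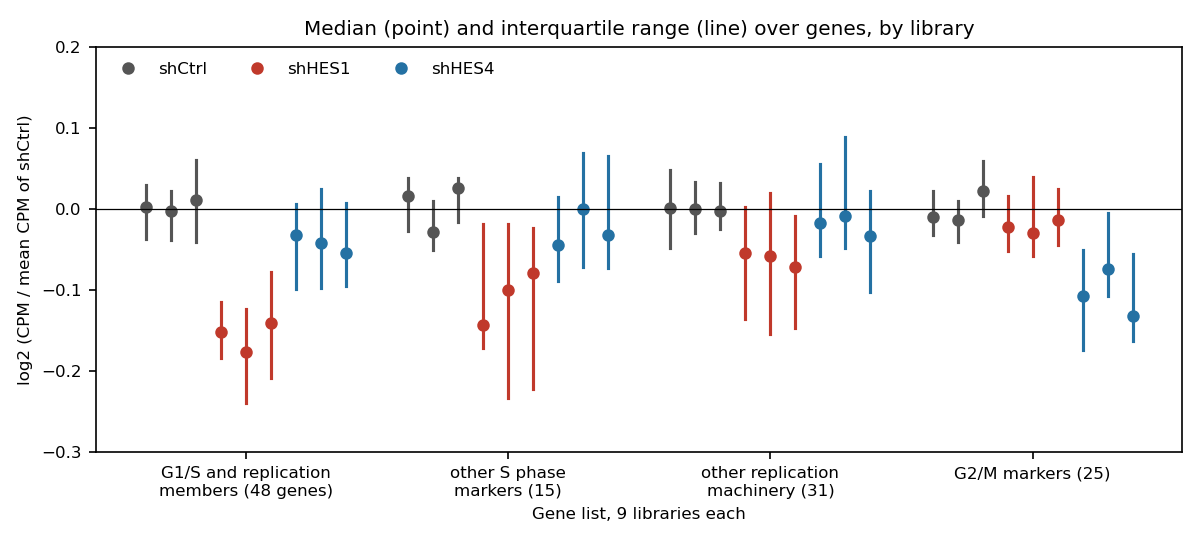
Median (point) and interquartile range (line) of the log2 ratio to the shCtrl mean in each library, over the 48 members, other S phase markers, other replication genes and G2/M markers. The members lie at -0.14 to -0.18 in shHES1 and -0.03 to -0.05 in shHES4, and the G2/M markers at -0.01 to -0.03 and -0.07 to -0.13.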

How the data were processed

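RNA sequencing of 9 A549 libraries was grouped by the named hairpin. TRIzol extraction and a SMARTer kit for total RNA were used, per the labels' protocols. The authors deposited estimated counts per Ensembl human gene; 35.5% of nonzero values were not whole (tolerance 1e-06). Aligner, counter and strand setting were not given in the sources used here. GRCm38 and mm10, mouse builds listed in the submitters' processing notes, are at odds with the human identifiers. Estimated counts were rounded to whole numbers for edgeR 4.0.16 in R 4.3.3 (filterByExpr, TMM, quasi-likelihood F test over 3 groups, 6 residual degrees of freedom, Benjamini-Hochberg threshold 0.05). The standard error is the log2 fold change divided by the square root of F. DESeq2 1.42.0, other scalings and filters, a replicate block, a correction for GC content and length, and leaving out each library were alternatives. Coordinates, lengths and GC content are from GENCODE 29 on GRCh38, and promoters from RefSeq on GRCh38.p14. The fit was tested on simulated data whose smallest fold was 1.25, so smaller changes, as of most members here, were not covered.

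The members and gene lists were chosen with earlier results of these data known. Values in every library are given, in each role group, for the 2 members with the smallest adjusted p in shHES1 against shCtrl and the 1 with the smallest in each other comparison; some further members were given values after they were seen. Some genes of the other lists are not reported here by name. Totals of 22.8 to 27.6 M counts left the lowest member count at 150, and counting error weighs most on such low members. The median within-group coefficient of variation over the members was 3.38%. Over all genes with enough counts, shCtrl replicate 3 stood farther from its group. Its chi-square per degree of freedom was 6.49 and 4.90 against shCtrl replicates 1 and 2. The other pairs within groups spanned 2.33 to 3.22. Without shCtrl replicate 3, 22 members were lower in shHES1 and 1 in shHES4, beside 5.09% and 2.25% of all genes.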

Additional observations from a re-analysis of the deposited data

How the results depend on the processing

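Over the alternatives, single members lost a call 113 times and gained a call 24 times, and 0 called values changed sign. In shHES1 against shCtrl the gains included CDC45 under 4 alternatives, POLE under 3, and RFC3 and FAM111B under 2 each. Some uncalled values near 0, such as CCNE1 in shHES1 (-0.03 to 0.06), changed sign. The members' median log2 fold changes stayed within -0.12 to -0.17 in shHES1 against shCtrl, -0.04 to -0.06 in shHES4 against shCtrl and -0.10 to -0.14 in shHES1 against shHES4. Leaving out single libraries gave 14 to 24, 0 to 2 and 11 to 18 members lower in these comparisons. Of all genes, 2.77% to 5.09%, 1.77% to 2.96% and 5.13% to 8.38% were lower in the same fits. In shHES4 against shCtrl, scaling by total counts, a replicate block and a fit of the 6 libraries compared each gave 1 member lower. Of all genes, 2.41%, 2.26% and 1.94% were lower under these settings. Without a filter on low counts, 1 member, SLBP, was higher in shHES1 against shHES4, beside 1481 of 32636 genes. The cause was not tested. With the replicate number as a block 21, 1 and 15 members were lower, beside 3.94%, 2.26% and 6.88% of all genes. Whether equal numbers pair the samples is not stated in the labels. Deviations of same-numbered libraries correlated at -0.13 to 0.10 over 11585 genes. A library correlated best with its own number in 2 of 18 cases, which does not settle the question. Depth limits the low members most, CCNE2 being the one below 10 CPM.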
